A study of Homo sapiens with 4 samples.

Results

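The 14-3-3 proteins are encoded by 7 human genes, YWHAH (eta), YWHAE (epsilon), YWHAG (gamma), YWHAQ (theta), YWHAB (beta), YWHAZ (zeta) and SFN (sigma), and their mRNAs were measured in 2 squamous cell carcinoma lines transfected with miR-489 or miR-504. Every non-control probe of the array design that carried one of these gene names was taken, which gave 21 probes of 41000, with 1 spot each, for 7 genes of 30982. The family was chosen by a measured value, the log2 ratio of YWHAH on the FaDu miR-489 array, the highest on that array, so this value is a description and no test is attached to it.

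The deposited data held 4 arrays read in 2 colours, 1 array per condition. FaDu is an established line of a hypopharyngeal carcinoma and HSC3 an established line of a tongue carcinoma. Each array set one miRNA transfectant, labelled with Cy5, against a control miRNA transfectant of the same line, labelled with Cy3, at 72 h. The 4 conditions were FaDu with miR-489, FaDu with miR-504, HSC3 with miR-489 and HSC3 with miR-504. The dyes were never exchanged, so where all arrays share a ratio, a dye effect of that probe and an effect common to the miRNAs cannot be told apart.

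14-3-3 proteins form dimers that bind short phosphoserine or phosphothreonine motifs in other proteins. Binding can hold a client in the cytoplasm, mask a second site or stabilise a conformation, as for CDC25 phosphatases, BAD, FOXO factors and YAP1. The isoforms form mixed dimers to differing degrees. SFN differs from the rest in its restriction to epithelia and its preference for homodimers, and in squamous epithelium it is an abundant protein.

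The transfected miRNAs share no seed, the bases that pair with a target, and are printed to show what the Cy5 samples of each pair of arrays had received. The mature arms that the older names miR-489 and miR-504 denote are given from RefSeq (GRCh38.p14), with the seed, bases 2 to 8 from the 5′ end, in capitals. hsa-miR-489-3p lies on the minus strand at chr7:93483947-93483968 and hsa-miR-504-5p on the minus strand at chrX:138667760-138667781.
hsa-miR-489-3p: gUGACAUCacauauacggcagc
hsa-miR-504-5p: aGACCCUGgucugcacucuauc

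In all arrays and both channels the 21 member probes were well above background, as marked by the scanner software, so no member value is a bound. The study's target PTPN11, a protein tyrosine phosphatase, was lower on every array by its brightest probe, with log2 ratios of −3.25 (FaDu) and −3.21 (HSC3) after miR-489 and of −1.28 (FaDu) and −1.04 (HSC3) after miR-504. Its other 3 probes were also lower after miR-489, but after miR-504 PTPN11 A_23_P99027 gave 0.35 and 0.30 where the others were lower, so no direction is given for the gene after miR-504. The reference gene GAPDH was above the array median on every array by its single probe, at 0.84 to 1.03. The 4 probes of the reference gene ACTB ranged from −0.10 to 1.11, and ACTB A_23_P135769 was below the median on the FaDu miR-504 array. Replicate spots of the same probe on an array had a standard deviation of 0.0887 to 0.103 on the log2 scale, which is technical only. The squamous markers KRT5, KRT14, KRT17, TP63, CDH1 and DSG3 were well above background on all 4 arrays, the leukocyte marker PTPRC and the endothelial marker PECAM1 on 0, and the fibroblast marker COL1A1 on the 2 HSC3 arrays.

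YWHAH, the eta isoform, was higher in the miRNA transfectants than in control transfectants on all 4 arrays. Its single probe, A_23_P103070, on chromosome 22, had background-subtracted Cy3 intensities of 315.5 (miR-489) and 445 (miR-504) in FaDu and of 651 (miR-489) and 965 (miR-504) in HSC3, and sets of 4 values are given in this order throughout. The Cy5 signals were 2733, 2449, 4557 and 4594. The Cy5 signal exceeded the Cy3 signal on every array, and each channel was brighter in both HSC3 hybridisations than in both FaDu hybridisations. The log2 ratios of Cy5 over Cy3, with the array median set to 0, were 2.54, 1.81, 2.23 and 1.81, or 5.80-, 3.52-, 4.69- and 3.51-fold. In bulk RNA a change in the share of cells with a transcript and a change in its level per cell cannot be told apart.

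**Figure D1:**
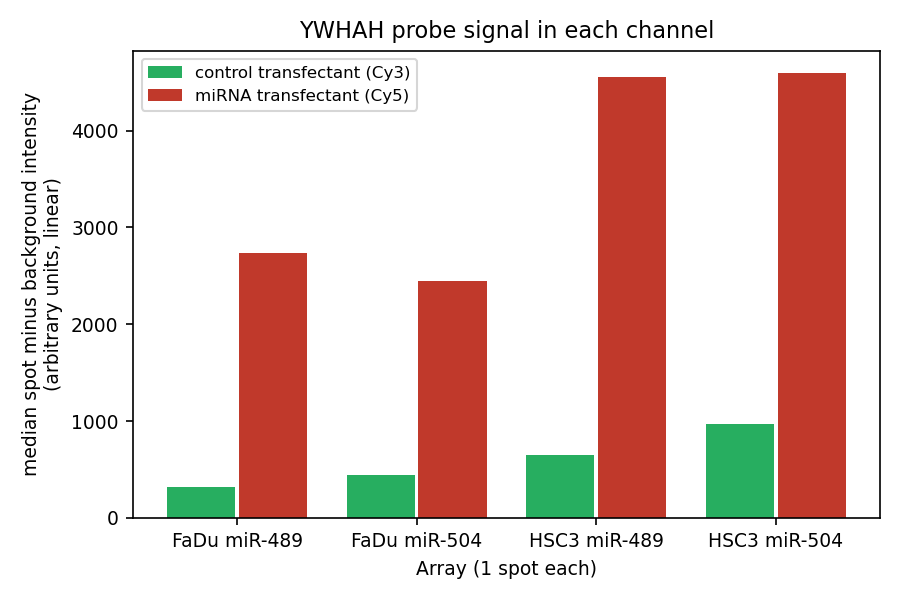
Background-subtracted median intensity of the YWHAH probe (linear scale, arbitrary units) in the control transfectant (Cy3, green) and the miRNA transfectant (Cy5, red) of each array, 1 spot per bar and no error bar. Cy5 is above Cy3 in each pair, and the Cy3 bars range from 315.5 to 965 while the Cy5 bars lie at 2449 and 2733 in FaDu and 4557 and 4594 in HSC3.

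Among probes well above background in both channels YWHAH ranked 1 of 23128, 20 of 23168, 5 of 23474 and 12 of 23269. The first of these ranks is what selected the family. On that array the value next below it was that of LOC284361 at 2.39. The ratios of the miR-504 arrays had no part in the choice. There the limma estimate with the lines as 2 samples was 1.81 in the fit without the FaDu miR-489 array. The ratio was above 0 in 2 of 2 lines. These arrays share the dye layout of the array that chose the family, so a dye effect of the probe would recur on them. Whether the control hybridisations of a line came from separate cultures is not given in the sources used here.

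The genes whose ratios lay nearest to those of YWHAH over the 4 arrays, by Euclidean distance, had no 14-3-3 gene among them. They were IRF2BP1, a transcriptional corepressor, at a distance of 0.53, POLR3E, a subunit of RNA polymerase III, at 0.56, EIF4EBP1, a repressor of cap-dependent translation, at 0.56, the transcription factor STAT3 at 0.56 and the magnesium transporter SLC41A1 at 0.58. EIF4EBP1 gave 2.08, 1.88, 1.93 and 1.73, and STAT3 gave 2.02, 1.66, 2.37 and 1.86. That both were above 0 on all 4 arrays follows from their choice by nearness to YWHAH. The likeness is over 4 arrays that share slide, scan and dye layout.

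Of the 21 member probes 2 reached 2-fold higher on each array, that of YWHAH and the YWHAE probe A_23_P72285. The share of all probes at least 2-fold higher was 2.92% on the FaDu miR-489 array, 2.32% on the FaDu miR-504 array, 2.82% on the HSC3 miR-489 array and 1.95% on the HSC3 miR-504 array. YWHAH is counted here although it selected the family, so nothing is read from the member count on the first of these arrays. No member probe (0 of 21) reached 2-fold lower, against 7.96%, 5.44%, 7.45% and 4.55% of all probes. SFN came nearest, at −0.996 on the FaDu miR-489 array, where the threshold is −1. With an intensity-dependent (loess) normalisation 2, 2, 1 and 2 member probes, of SFN and YWHAQ, passed 2-fold lower, and the counts of higher probes stayed at 2.

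**Figure D2:**
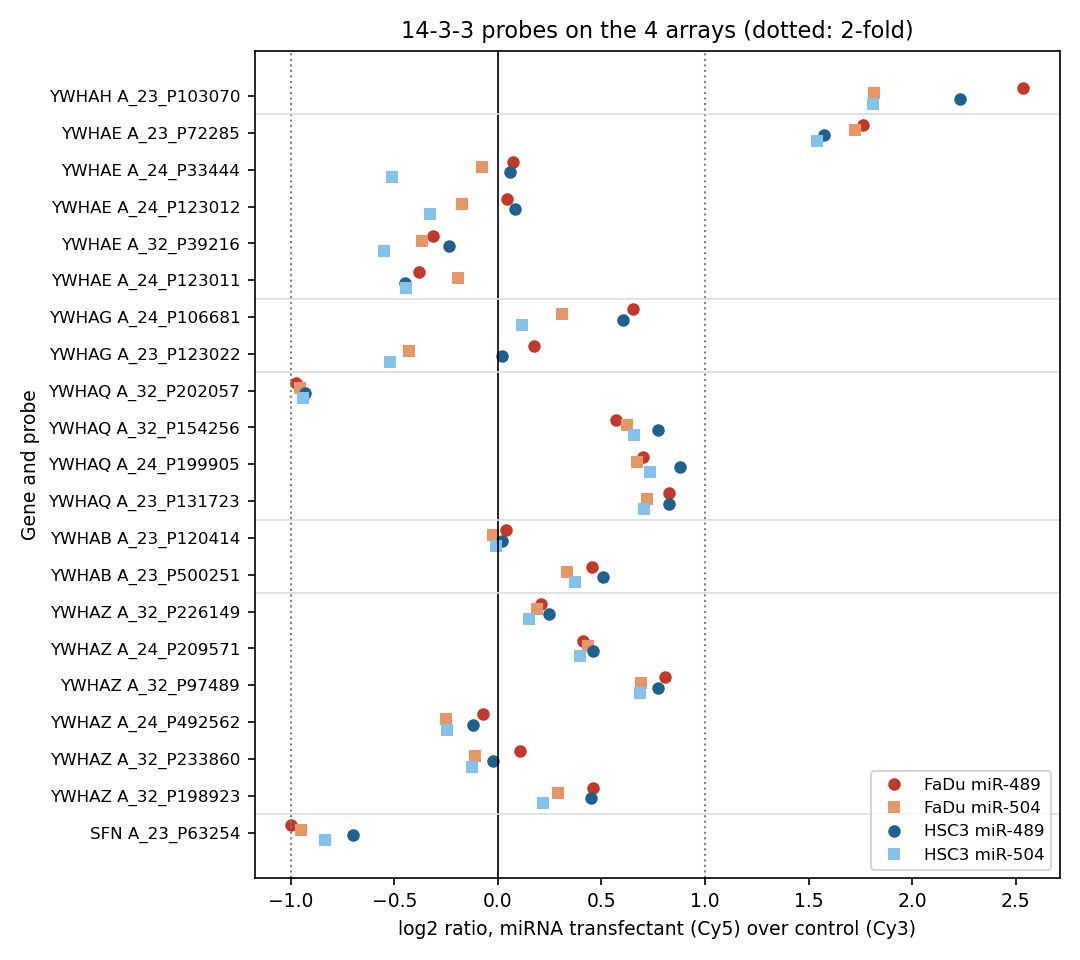
Centred log2 ratio of the miRNA transfectant (Cy5) over the control transfectant (Cy3) for every probe of the 7 genes, ordered by gene and within a gene from the most 3′ probe; circles are miR-489, squares miR-504, red and orange FaDu, dark and light blue HSC3, and each point is 1 spot. Points of 1 probe mostly lie together, probes of YWHAE and YWHAQ lie far apart, and YWHAH and the top YWHAE probe are beyond the dotted 2-fold line on all arrays.

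The ratio of most member probes moved less from array to array than that of the median probe. The range of a probe's 4 values had a median of 0.22 over the 21 member probes, from 0.04 to 0.72. Over the 20751 probes well above background on all arrays the median range was 0.37, and brightness was not matched. The highest member range was that of YWHAH. YWHAH, YWHAG A_23_P123022 (0.70) and YWHAE A_24_P33444 (0.59) lay above the upper quartile of all such probes, at 0.57. Of the members 11 were above 0 on all 4 arrays and 5 below 0 on all 4, or 52.4% and 23.8%, against 36.4% and 30.9% of all such probes. YWHAH, whose FaDu miR-489 ratio chose the family, is among the 11 and in the member medians that follow. Probes of the same gene are not independent of each other. The median member ratio was 0.21, 0.19, 0.24 and 0.12, beside 0.04, 0.03, 0.05 and 0.03 over the same 20751 probes. With loess normalisation the member median was 0.14, 0.01, 0.22 and −0.11, so the direction of the family as a whole turned on the HSC3 miR-504 array. Across 7 ways of calculating the ratio, 9 probes stayed above 0 and 4 stayed below 0 on all 4 arrays.

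YWHAE, the epsilon isoform, which favours mixed dimers, was split by its 5 probes. The most 3′ probe in the direction of transcription, A_23_P72285, gave log2 ratios of 1.76, 1.73, 1.57 and 1.54, or 3.40-, 3.31-, 2.98- and 2.91-fold. A_24_P123011 gave −0.38, −0.19, −0.45 and −0.44. A_32_P39216 gave −0.31, −0.36, −0.24 and −0.55. On no array did a further YWHAE probe come near the first, and these last probes were below 0 throughout. A_24_P123012 gave 0.04, −0.17, 0.08 and −0.33 and A_24_P33444 gave 0.07, −0.08, 0.06 and −0.51, values whose sign differed with the miRNA, and for A_24_P123012 on the miR-489 arrays also with the normalisation. The last pair share 41 bases of genome in the array's own annotation and differed by at most 0.18 on an array. The Cy3 signals of the most 3′ probe were 2517.5 to 3157 and those of the other 4 probes 126 to 371, and signals of different probes are not comparable as levels.

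YWHAQ, the theta isoform, was split in the opposite sense. Its 3 upstream probes were higher in the miRNA transfectants. A_23_P131723 gave 0.83, 0.72, 0.83 and 0.71. A_24_P199905 gave 0.70, 0.67, 0.88 and 0.74. A_32_P154256 gave 0.57, 0.63, 0.77 and 0.66. The last pair share 40 bases and differed by 0.04 to 0.13, close to the spread of replicate spots. The most 3′ probe, A_32_P202057, gave −0.97, −0.96, −0.93 and −0.94, lower on all arrays, and its range of 0.04 was the lowest of the member probes. All 4 YWHAQ probes were bright, with Cy3 signals from 7944 to 37073, and they lie within 673 bases of each other. Loess lowered the 3 upstream probes to between 0.25 and 0.57 and the most 3′ probe to between −1.26 and −1.15, and no sign changed.

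**Figure D3:**
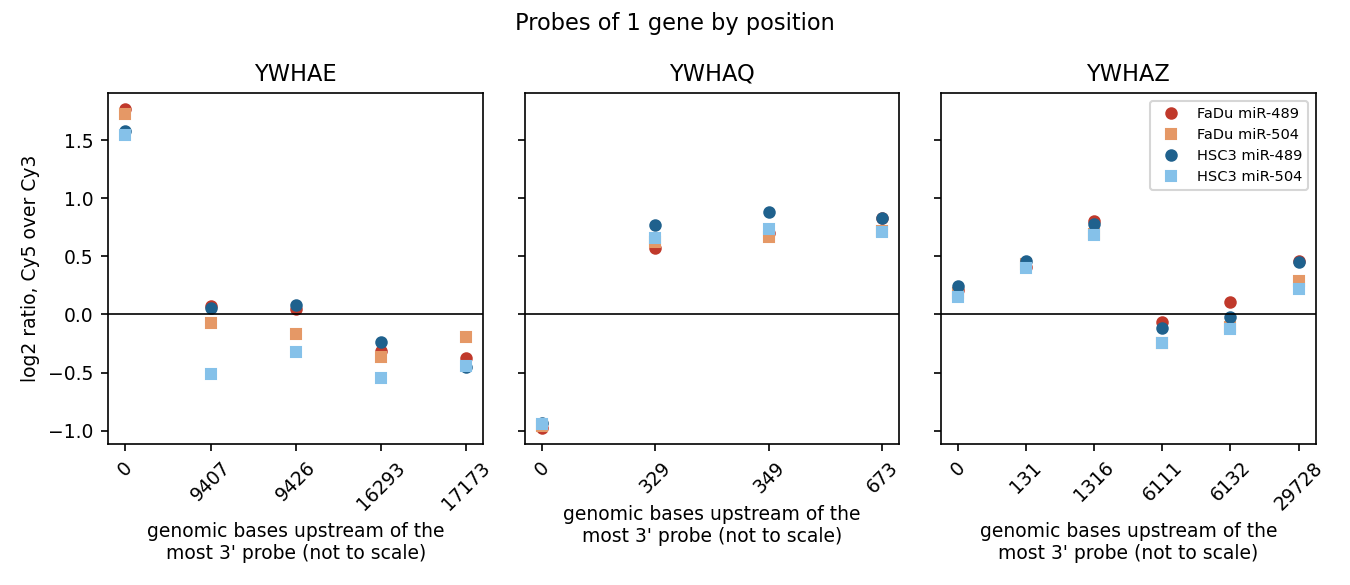
Log2 ratio of each probe of YWHAE, YWHAQ and YWHAZ on the 4 arrays against its place in the gene, written as genomic bases upstream of the gene's most 3′ probe (introns included, axis not to scale); circles miR-489, squares miR-504, red and orange FaDu, blue HSC3. The most 3′ probe is the highest of YWHAE, at 1.54 to 1.76, and the lowest of YWHAQ, at −0.97 to −0.93, while YWHAZ shows no such order.

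The mean ratios of the probes of a gene were 2.02 apart at the extremes for YWHAE and 1.72 for YWHAQ on the log2 scale. Of 3929 genes with 2 or more probes well above background on all arrays, 13 genes, or 0.331%, were spread at least as widely as YWHAE and 35 genes, or 0.891%, as widely as YWHAQ. Genes with more probes have more room to spread, and the number of probes was not matched here. YWHAZ spread over 0.91, YWHAG over 0.61 and YWHAB over 0.41, each nearer the median gene at 0.38.

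YWHAZ, the zeta isoform and a widely expressed member, had 6 probes with modest ratios. A_32_P97489 gave 0.81, 0.69, 0.77 and 0.69. A_24_P209571 gave 0.41, 0.43, 0.46 and 0.40, and A_32_P198923 gave 0.46, 0.29, 0.45 and 0.22. These 3 probes were above 0 on every array. A_32_P226149 gave 0.21, 0.19, 0.24 and 0.15, but with loess it was −0.05 on the FaDu miR-489 array and −0.07 on the HSC3 miR-504 array. A_24_P492562 gave −0.07, −0.25, −0.12 and −0.24, and A_32_P233860 gave 0.11, −0.11, −0.02 and −0.13. No YWHAZ probe reached 2-fold on any array.

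YWHAB, the beta isoform, gave 0.45, 0.34, 0.51 and 0.37 by A_23_P500251 and 0.04, −0.02, 0.02 and −0.01 by A_23_P120414. The first lay above 0 on every array, and the second lay within the spread of replicate spots from 0. With loess the first gave 0.14, 0.12, 0.22 and 0.09 and the second −0.22, −0.20, −0.22 and −0.25, so both were lowered on every array.

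YWHAG, the gamma isoform, gave ratios that separated by miRNA with both probes, as YWHAB did by smaller amounts and as many probes of other members did. A_24_P106681, a bright probe, gave 0.65 in FaDu and 0.60 in HSC3 after miR-489, and 0.31 and 0.12 after miR-504. A_23_P123022, a dim probe with Cy3 signals of 55 to 70, gave 0.18 and 0.02 after miR-489, and −0.43 and −0.52 after miR-504. On both probes the values of the 2 miRNAs did not overlap, which also held for both YWHAB probes and the YWHAH probe. It held as well for YWHAE A_24_P123012, A_24_P33444 and A_32_P39216, for YWHAQ A_23_P131723 and for every YWHAZ probe except A_24_P209571. The separation was therefore not particular to YWHAG. The share of all probes without such overlap was not counted. With loess the HSC3 miR-504 value of the bright probe was −0.12. Without background subtraction the dim probe gave −0.12 and −0.16 after miR-489, and its HSC3 miR-489 value was also below 0 with normexp (−0.03) and with the mean spot signal (−0.03), so it has no settled direction against control after miR-489.

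SFN, the sigma isoform, was the only 14-3-3 gene lower by all its probes on all 4 arrays, with a single probe. A_23_P63254 had Cy3 signals of 4266.5, 5158, 5995.5 and 7348 and Cy5 signals of 3194.5, 4179, 5512 and 5587. Its log2 ratios were −0.996, −0.95, −0.70 and −0.83, or 0.501-, 0.518-, 0.616- and 0.561-fold of the control. Over the ways of calculating the ratio it lay between −1.18 and −0.54 and was below 0 in each.

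A linear model (limma) took the FaDu and HSC3 arrays as the 2 samples of each miRNA and tested the mean ratio against 0, which leaves the spread of the control out. Against control, 10 of 21 member probes were higher after miR-489 and 4 lower, beside 30.9% and 26.3% of 20914 probes. After miR-504, 9 were higher and 6 lower, beside 26.7% and 23.1%. YWHAH is among the higher probes in both counts, and since its FaDu miR-489 ratio chose the family it adds no support; of the other 20 probes 9 and 8 were higher. With loess, YWHAH again included, the counts were 9 higher and 5 lower after miR-489 and 6 and 6 after miR-504. Over all probes fitted with loess, 5536 were higher and 5733 lower after miR-489, and 4773 and 5118 after miR-504. The miR-504 counts rested on both arrays, since 7 member probes passed in all without either of them, against 15 with both.

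For SFN the estimates were −0.85 ± 0.10 (SE; limma, adjusted p = 0.00238) after miR-489 and −0.89 ± 0.10 (adjusted p = 0.00280) after miR-504, lower in 2 of 2 lines with each. For the most 3′ YWHAE probe they were 1.67 ± 0.09 (adjusted p = 0.000854) and 1.63 ± 0.09 (adjusted p = 0.00129). The most 3′ YWHAQ probe gave −0.95 ± 0.08 with both miRNAs (limma, adjusted p = 0.00105 and 0.00149), and the other YWHAQ probes 0.67 to 0.83 after miR-489 and 0.64 to 0.71 after miR-504, all past the threshold. For YWHAQ A_32_P154256 the miR-504 call was lost without the FaDu miR-504 array (adjusted p = 0.0523 by limma) or the HSC3 miR-504 array (0.0530). YWHAZ A_32_P97489 gave 0.79 ± 0.08 and 0.69 ± 0.08 (limma, adjusted p = 0.00142 and 0.00254). The upstream YWHAE probe A_24_P123011 gave −0.41 and −0.32 (limma, adjusted p = 0.0155 and 0.0403), opposite in sign to the most 3′ YWHAE probe. Its miR-489 call was lost without the FaDu miR-489 array (adjusted p = 0.0608 by limma) or the HSC3 miR-489 array (0.0884). Its miR-504 call was lost without any 1 of the 4 arrays, and without the HSC3 miR-504 array the estimate was −0.19 (adjusted p = 0.334 by limma).

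Whether a member responded differently to the miRNAs was asked by subtracting the ratios of the miR-504 arrays from those of the miR-489 arrays, where a constant dye effect of a probe cancels. YWHAH is left out of these counts. By limma 0 of the other 20 member probes passed, beside 1.12% of all probes, and 3 had an unadjusted p under 0.05, beside 18.5% of all probes. The 3 were both YWHAG probes and YWHAE A_24_P123012. With the cell line as a block 0 member probes passed. YWHAG A_23_P123022 was 0.57 higher after miR-489 (95% interval 0.27 to 0.88, adjusted p = 0.11 by limma), with 0.60 in FaDu and 0.54 in HSC3. YWHAG A_24_P106681 was 0.41 higher (0.10 to 0.72, adjusted p = 0.18 by limma), with 0.34 and 0.49. Neither passed the adjusted threshold, and the intervals do not show that the miRNAs acted alike.

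The subtraction for YWHAH was 0.72 in FaDu and 0.42 in HSC3, with a mean of 0.57, and is given without a test because the array that chose the family enters it. The difference lay mainly in the control channel. After quantile normalisation between arrays the Cy5 signal of YWHAH was 0.15 higher on the miR-489 array than on the miR-504 array in FaDu and 0.05 higher in HSC3. The Cy3 signal of the control transfectants differed by −0.51 in FaDu and −0.32 in HSC3. The Cy3 differences of SFN were −0.35 and −0.11, those of YWHAZ A_32_P198923 −0.39 and −0.40 and those of YWHAZ A_32_P233860 −0.28 and −0.28, so these control signals were also lower on both miR-489 arrays. Further probes of YWHAB, YWHAE, YWHAG, YWHAQ and YWHAZ had Cy3 differences below 0 in both lines too. The share of all probes with this sign was not counted. For the bright YWHAG probe the Cy5 differences were 0.18 and 0.29 and the Cy3 differences −0.09 and −0.20, so each channel held a part. For the dim YWHAG probe the Cy5 differences were 0.45 and 1.02, and the Cy3 differences, −0.23 and 0.43, had opposite signs. In the Cy5 channel alone, fitted by limma with the line as a block, 0 of 24119 probes passed and 3894 had an unadjusted p under 0.05, of which 1 was a member probe.

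**Figure D4:**
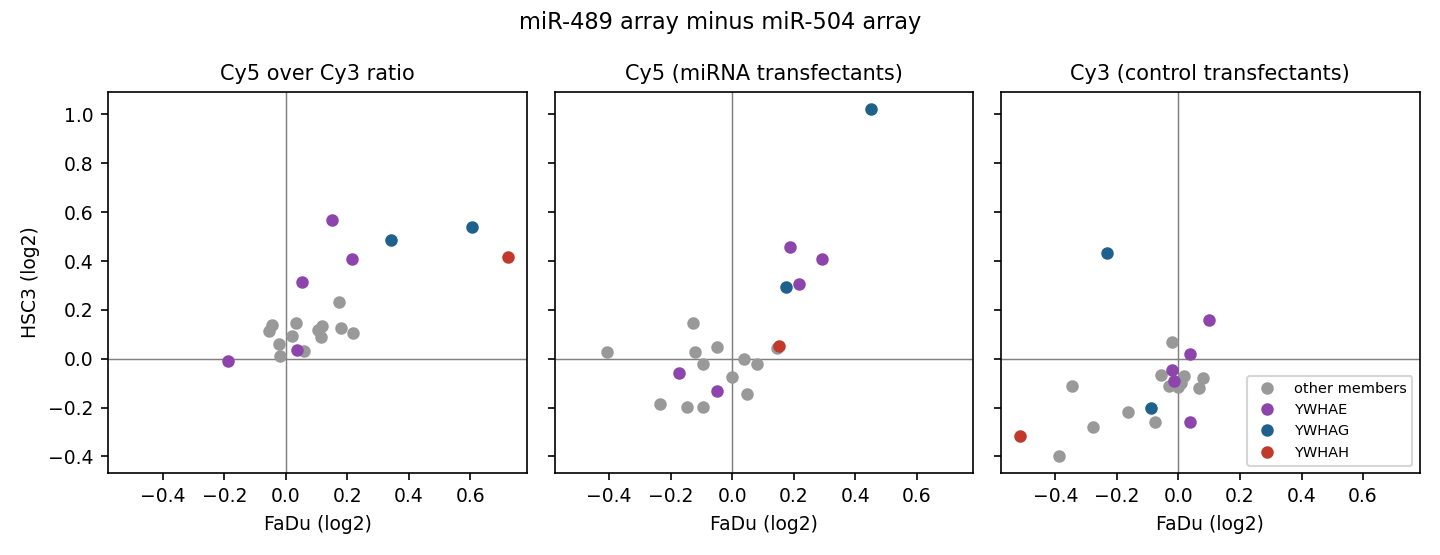
Difference between the miR-489 and the miR-504 array (log2) in FaDu (horizontal) and HSC3 (vertical) for the 21 member probes, from left to right for the Cy5 over Cy3 ratio, the Cy5 signal and the Cy3 signal, each channel after quantile normalisation; colours mark YWHAH, YWHAG and YWHAE. YWHAH lies at 0.72 and 0.42 in the ratio, at 0.15 and 0.05 in Cy5 and at −0.51 and −0.32 in Cy3. Both YWHAG probes are also positive in Cy5 in both lines. So are YWHAE A_24_P123012, A_24_P33444 and A_32_P39216 and YWHAB A_23_P500251.

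The Cy3 channel also compared the control transfectants of HSC3 with those of FaDu, with 2 hybridisations a line. The sources used here do not say whether these came from separate cultures, so the p-values may measure technical spread only. With YWHAH left out, by limma 4 of 20 member probes were higher in HSC3 and 1 lower, beside 22.7% and 26.4% of 24119 probes. The higher ones were the 4 YWHAQ probes. The log2 Cy3 levels of the most 3′ YWHAQ probe were 14.29 and 14.31 in FaDu and 15.14 and 15.07 in HSC3, a difference of 0.81 ± 0.13 (SE; limma, adjusted p = 0.00600), or 1.75-fold. The other 3 YWHAQ probes were 0.42 to 0.56 higher, or 1.34- to 1.48-fold (limma, adjusted p from 0.0204 to 0.0481). The 4 YWHAQ probes had the same sign here, unlike in the ratios. The groups did not overlap on any of them, but this also held for probes that did not pass, such as that of SFN. The share of all probes without overlap was not counted. Centred on the median in place of quantile normalisation, A_24_P199905 and A_32_P154256 missed the threshold at 0.35 and 0.32 (limma, adjusted p = 0.0896 and 0.113).

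YWHAH had log2 Cy3 levels of 8.40 and 8.91 in the FaDu controls and 9.38 and 9.70 in the HSC3 controls. The lines did not overlap, which also held for SFN, a gene that did not pass. The difference was 0.88, or 1.85-fold, and is not given a test, since the control signal of the FaDu miR-489 array entered the ratio that chose the family. Without that array it was 0.63 (adjusted p = 0.144 by limma) and did not pass. The YWHAZ probe A_32_P97489 was the member that was lower in HSC3, with 11.70 and 11.68 in FaDu and 11.11 and 11.18 in HSC3, a difference of −0.54 ± 0.13 (SE; limma, adjusted p = 0.0217). The other 5 YWHAZ probes differed by −0.25 to −0.05 and did not pass. SFN had 12.10 and 12.44 in FaDu and 12.56 and 12.68 in HSC3 and differed by 0.35 (95% interval −0.08 to 0.78, adjusted p = 0.143 by limma), and no probe of YWHAB, YWHAE or YWHAG passed. Leaving out either FaDu array removed all 5 calls, leaving out the HSC3 miR-489 array left 2 and leaving out the HSC3 miR-504 array left 1, while the differences of the YWHAQ probes stayed between 0.37 and 0.84.

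**Figure D5:**
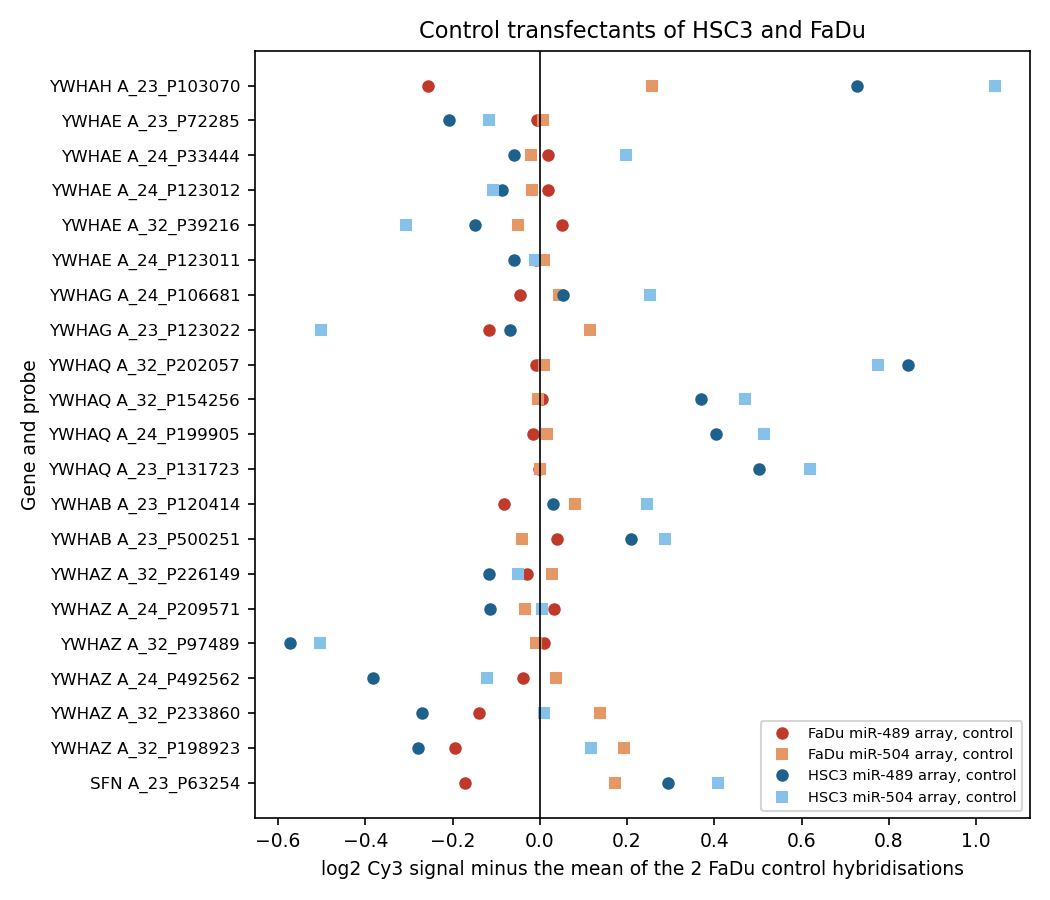
Log2 Cy3 signal of the control transfectants for every member probe, minus the mean of the 2 FaDu hybridisations of that probe; red and orange points are the FaDu arrays, blue points the HSC3 arrays, 1 spot each. The HSC3 points lie to the right of both FaDu points for all 4 YWHAQ probes and YWHAH, and to the left for YWHAZ A_32_P97489. They also lie to the right for SFN, YWHAB A_23_P500251 and YWHAG A_24_P106681, which did not pass. To the left they also lie for several YWHAE and YWHAZ probes that did not pass.

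Proteins known to bind 14-3-3 when phosphorylated were described by a list of 37 genes, each by its brightest probe, of which 33 were well above background in both channels on each array. Higher by at least 2-fold were 2, 0, 1 and 1 of them, beside 2.9%, 2.37%, 2.77% and 2.03% of genes. Lower by at least 2-fold were 3, 3, 2 and 1, beside 8.8%, 5.92%, 8% and 5.01%. The median ratio of the clients was 0.15, 0.09, 0.00 and 0.06, and that of all genes −0.01, 0.00, −0.01 and 0.00. By limma 9 of the 32 clients tested were higher and 5 lower after miR-489, beside 30.9% and 26.3% of all probes tested. After miR-504 they were 6 and 6, beside 26.7% and 23.1%. Between the miRNAs 0 clients differed, beside 1.12% of all probes.

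BAD, a cell death promoter that 14-3-3 holds away from mitochondria, gave 1.07, 0.996, 1.11 and 1.14, higher on every array and past 2-fold on 3. BAX, a pore-forming cell death protein, gave −1.04, −1.16, −1.03 and −1.03 by its brightest probe, but its other 2 probes gave 0.15 to 0.58 and −0.39 to 0.26, so no direction is given for the gene. CHEK1, a checkpoint kinase, gave −1.11, −1.03, −0.88 and −0.98. CDKN1B, the cyclin-dependent kinase inhibitor p27, gave −1.18, 0.00, −1.06 and −0.68, and its second probe −1.15, 0.11, −0.98 and −0.17, so that in each line both probes were lower after miR-489 than after miR-504. Its difference between the miRNAs was −0.79 and did not pass (adjusted p = 0.189 by limma). CDC25C, a phosphatase that drives entry into mitosis, gave 0.26, 0.86, 0.60 and 0.34. YAP1, a Hippo pathway coactivator kept in the cytoplasm by 14-3-3, gave 0.52, 0.15, 0.47 and 0.10 by its brightest probe and −0.26, −0.59, 0.23 and −0.50 by the other. IRS1, an insulin receptor substrate, gave 1.03 on the FaDu miR-489 array and was past 2-fold there only.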

How the data were processed

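RNA of FaDu or HSC3 cells given miR-489 or miR-504 (Cy5) was hybridised with RNA of control transfectants (Cy3) on 4 Agilent arrays. The authors deposited spot and background intensity values from Feature Extraction, not normalised, and log10 ratios that the same software had corrected for dye and position; the deposited table held the same log10 ratios, with 0 as the largest difference. Marks of 0 or 1 in the deposited output (score) for signal well above background, outliers and saturation were used as filters. Log2 ratios of median minus background intensity were centred on the array median of probes well above background in both channels, which removed 0.58, 0.65, 0.58 and 0.44. Each array had 118 to 137 outlier spots, which were dropped, and 0 saturated spots. The 4 arrays shared 1 slide and 1 scan. A gene called lower needed Cy3, and a gene called higher Cy5, well above background. limma 3.58.1 (R 4.3.3) was fitted to 20914 probes whose Cy3 was well above background on each of the 4 arrays (2 residual degrees of freedom) and to quantile-normalised Cy3 of 24119 probes; the threshold was a Benjamini-Hochberg adjusted p of 0.05. The fits were also run on simulated data, with equal normal noise for all probes and no dye effect. That run does not bear on how far the calls made here can be trusted. Precision is limited by the number of arrays.

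The members and lists were chosen with earlier results of these data known. Named were all member probes, PTPN11, ACTB, GAPDH, clients at least 2-fold changed on 2 or more arrays, CDC25C, BAD and YAP1, and the 5 genes nearest to YWHAH; IRS1 and LOC284361 were added after their values were seen. The client list was counted whole and only some clients are named; results for 2 of its genes are not reported here. Alternatives were other background corrections, loess, the deposited ratios, other filters, a 1.5-fold threshold, a cell line block and fits without each array. The genome build of the array's coordinates is not given in the sources used here, and none are printed. All 7 RefSeq accessions of the members matched their symbols. The study's methods name another scanner and program than the deposited output. Transcript and protein sequences were not used here.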

Additional observations from a re-analysis of the deposited data

How the results depend on the processing

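Of 504 member ratios recalculated in other ways, 36 changed sign, none of them (0) a value past 2-fold. In size 277 of them moved by at least the standard deviation of replicate spots on the array. With loess the median shift was −0.18. Member probes at least 2-fold higher stayed at 2 on each array except at a 1.5-fold threshold (6, 6, 7 and 6) and, on the HSC3 miR-489 array, without background subtraction (3, with YWHAQ A_24_P199905); those lower, 0 in the main setting, were 2 on each array at 1.5-fold, 2, 2, 1 and 2 with loess or with normexp and loess, and 2, 2, 1 and 1 with the deposited log10 ratios. 14-3-3 clients changed at least 2-fold, 5, 3, 3 and 2 in the main setting, were 8, 7, 8 and 7 at 1.5-fold and 2, 1, 1 and 1 without background subtraction. With normexp they were 3 on the FaDu and 1 on the HSC3 miR-489 array, and with normexp and loess 3 on the FaDu miR-489 array. With the mean spot signal they were 5 on the FaDu miR-504 array, and with the mean of all probes of a gene 1 on each miR-504 array. Without a filter on dim probes they were 6 on the FaDu miR-504, 6 on the HSC3 miR-489 and 5 on the HSC3 miR-504 array. Member probes passing limma without 1 array ranged from 12 to 13 after miR-489 (14 with all), from 7 to 12 after miR-504 (15), were 0 between the miRNAs and ranged from 0 to 2 between the control lines (6), YWHAH included in each count with all arrays except that between the miRNAs. No fitted value of a member probe that passed changed sign. With the cell line as a replicate block 0 member probes passed between the miRNAs, and 13 and 13 against control; YWHAE A_32_P39216 lost its call after miR-489 (adjusted p = 0.0549, limma), and YWHAZ A_24_P492562 and A_32_P198923 lost theirs after miR-504 (0.0627 and 0.0579). Over all probes 234 passed between the miRNAs, 380 with the block, 672 with normexp, 390 with the deposited ratios and 0 without a filter or with any 1 array left out. Without a filter 24210 and 22229 passed against control (11960 and 10415), and 5902 between the lines (11832). With 1 array left out, 8610 to 10437, 3349 to 10980 and 2937 to 7229 probes passed in these 3 fits. The Cy5 channel alone was chosen after seeing the data.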
